A study of Mus musculus with 4 samples.

Results

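The regions described here are the olfactory receptor (Olfr) genes of the mouse, the family of odorant receptor genes that lies in tandem clusters on most chromosomes. They were taken from RefSeq on GRCm38.p6, the assembly called mm10, as every protein-coding gene whose symbol is Olfr followed by a digit. The annotation held 1110 such genes, and 1109 of them lay on chromosomes 1 to 19, X and Y and made up the members, out of 21774 protein-coding genes placed on these chromosomes. Each gene body, with a median length of 951 bp, was extended by 2 kb on each side. The measure was the covered share, the percent of this extended body that lay under deposited peaks of H3K27me3, the histone mark laid down by Polycomb repressive complex 2. Members on the same chromosome whose consecutive bodies lay at most 1 Mb apart were joined, which gave 49 clusters on 17 chromosomes. Of these clusters, 30 held at least 5 members and 9 held a single gene.

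The peaks came from CUT&Tag, in which an antibody guides a transposase to cut and tag the DNA around the mark. There were 4 libraries of splenic germinal center B cells from C57BL/6 mice, 2 labelled KO, which the series text gives as a knockout of Kdm6b in B cells, and 2 labelled WT. Kdm6b encodes an enzyme that removes methyl groups from H3K27. All 4 mice received sheep red blood cells, were challenged again 5 days later and were killed on day 12, and 1000 to 5000 cells went into each library with 1 µg of antibody. In the title of the series the cells are also called pre-plasma. No source used here names the Cre line behind the knockout, the deleted part of Kdm6b, or the age and sex of the mice, and a peak list cannot check the deletion. Peaks covered 143.9 and 235.8 Mb in KO replicates 1 and 2, against 212.6 and 101.4 Mb in WT replicates 1 and 2. The covered length therefore differed more within each genotype than between them, and the mean covered share of the members, given below, ran in the same order over the 4 libraries. Values are given throughout for KO replicates 1 and 2 and then for WT replicates 1 and 2.

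Olfactory receptors are G protein-coupled receptors of the sensory neurons of the nose. Each mature neuron expresses a single allele of a single receptor gene, and the remaining receptor genes are held in heterochromatin that in these neurons carries methylation of H3K9 and H4K20. Class I receptors resemble those of fish and lie in a single mouse cluster around the beta-globin genes, while class II receptors make up all other clusters. The peak lists show how far called peaks of the Polycomb mark reach over these genes in B cells. How well reads can be placed in the similar sequences of the family could not be assessed.

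7 promoters are printed because they carry the range of the results. The windows of Olfr94, Olfr222, Olfr312 and Olfr649 were covered over their whole length in all 4 libraries, that of Olfr263 was covered in KO libraries alone, and those of Olfr16 and Olfr17 were never covered. Each window runs from 250 bases before to 50 bases after the annotated start, 5′ to 3′ on the strand of the gene, and is credited to RefSeq on GRCm38.p6. Capitals mark CpG dinucleotides.
Olfr94, chr17:37197917-37198216, minus strand: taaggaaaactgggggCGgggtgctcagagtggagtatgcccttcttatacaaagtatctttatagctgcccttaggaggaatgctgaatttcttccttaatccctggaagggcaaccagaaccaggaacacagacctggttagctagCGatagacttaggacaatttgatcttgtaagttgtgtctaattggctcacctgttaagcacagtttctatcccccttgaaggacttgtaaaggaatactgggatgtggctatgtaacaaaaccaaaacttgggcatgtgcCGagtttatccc
Olfr222, chr11:59571689-59571988, minus strand: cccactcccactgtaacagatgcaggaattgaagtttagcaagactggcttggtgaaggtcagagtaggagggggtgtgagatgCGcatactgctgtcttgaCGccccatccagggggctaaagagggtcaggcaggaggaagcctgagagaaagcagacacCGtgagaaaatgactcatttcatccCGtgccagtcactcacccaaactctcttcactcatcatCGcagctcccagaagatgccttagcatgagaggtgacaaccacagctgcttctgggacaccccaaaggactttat
Olfr312, chr11:58830906-58831205, plus strand: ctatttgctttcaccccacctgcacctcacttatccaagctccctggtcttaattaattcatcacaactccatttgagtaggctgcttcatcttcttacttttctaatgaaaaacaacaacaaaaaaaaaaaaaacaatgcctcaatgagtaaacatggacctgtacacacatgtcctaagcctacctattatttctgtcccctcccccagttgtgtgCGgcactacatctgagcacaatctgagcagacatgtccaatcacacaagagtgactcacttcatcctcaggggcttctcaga
Olfr649, chr7:104190156-104190455, minus strand: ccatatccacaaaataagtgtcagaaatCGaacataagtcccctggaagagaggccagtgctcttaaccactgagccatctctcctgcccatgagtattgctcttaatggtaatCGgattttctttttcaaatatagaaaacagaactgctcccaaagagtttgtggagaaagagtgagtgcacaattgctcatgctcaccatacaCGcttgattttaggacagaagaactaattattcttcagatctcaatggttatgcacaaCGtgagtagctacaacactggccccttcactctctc
Olfr263, chr13:21132527-21132826, plus strand: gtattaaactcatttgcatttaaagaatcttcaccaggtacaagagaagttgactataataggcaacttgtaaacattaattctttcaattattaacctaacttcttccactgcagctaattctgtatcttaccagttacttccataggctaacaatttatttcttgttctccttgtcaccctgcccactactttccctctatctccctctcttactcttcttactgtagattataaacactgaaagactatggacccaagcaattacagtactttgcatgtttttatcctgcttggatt
Olfr16, chr1:172956518-172956817, plus strand: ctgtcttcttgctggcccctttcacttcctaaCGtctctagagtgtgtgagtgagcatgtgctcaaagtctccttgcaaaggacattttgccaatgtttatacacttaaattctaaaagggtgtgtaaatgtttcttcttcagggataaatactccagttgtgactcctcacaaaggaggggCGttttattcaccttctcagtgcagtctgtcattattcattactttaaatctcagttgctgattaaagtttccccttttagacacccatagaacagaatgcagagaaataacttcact
Olfr17, chr7:107097217-107097516, plus strand: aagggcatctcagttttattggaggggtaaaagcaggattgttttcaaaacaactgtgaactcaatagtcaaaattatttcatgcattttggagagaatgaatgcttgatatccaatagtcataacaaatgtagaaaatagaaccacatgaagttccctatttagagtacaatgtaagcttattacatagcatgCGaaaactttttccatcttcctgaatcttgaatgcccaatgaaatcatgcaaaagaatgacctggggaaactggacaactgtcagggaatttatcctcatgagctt
The Olfr94, Olfr222, Olfr312 and Olfr649 windows held 3, 5, 1 and 4 CpG, the Olfr263 window held 0, and the Olfr16 and Olfr17 windows held 2 and 1. In the Olfr263 window the covered share was 17.3% and 100% in KO libraries, against 0% in both WT libraries.

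Most olfactory receptor genes carried no H3K27me3 peak in these cells. Of 1109 members, 956 had no covered base in any library, 42 had coverage in 1 library, 31 in 2, 25 in 3 and 55 in all 4. The 153 members with coverage in any library made up 13.8% of members, where the same share over all protein-coding genes was 67.3%. The 55 with coverage in all 4 libraries made up 4.96%, against 39.5% over all genes. Each window followed the length of its gene, and a longer window is more easily touched by a peak. Window lengths were not matched between members and other genes, so these shares are not a measure of depletion alone. The number of members with any coverage was 88 and 111 in KO libraries, against 115 and 85 in WT libraries.

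The mean covered share of a member was 2.53% and 4.20% in KO libraries, against 3.95% and 1.66% in WT libraries. Over the 20665 other protein-coding genes it was 13.2% and 20.1% in KO libraries, against 17.7% and 9.90% in WT libraries. Members lay below the other genes in 4 of 4 libraries, by a mean of 12.1 percentage points (SD 3.36, n = 4 libraries; -10.7 and -15.9 in KO libraries, -13.7 and -8.24 in WT libraries). The exact two-sided sign-flip permutation test gave p = 0.13, the smallest that 4 libraries allow, and 0.143 after Benjamini-Hochberg adjustment over 8 comparisons made within libraries. The comparison across the ends of clusters and those with alternative windows stand outside this adjustment. Relative to the genome, the merged intervals of all members, 6509 kb in total, were covered 0.510 and 0.525 times as densely in KO libraries and 0.540 and 0.460 times as densely in WT libraries.

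**Figure D1:**
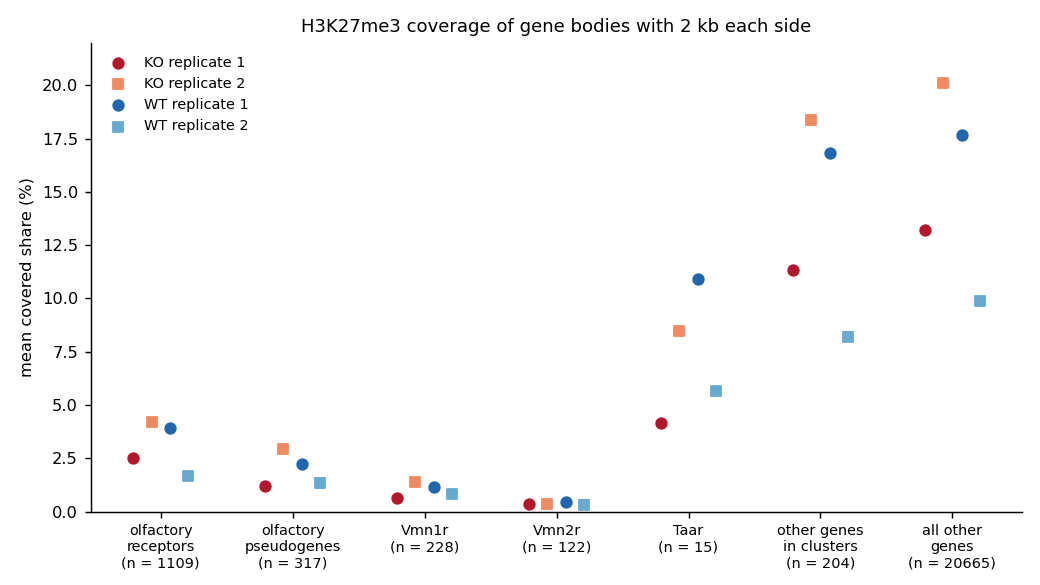
Mean covered share (percent of the gene body with 2 kb on each side that lay under H3K27me3 peaks) of olfactory receptor genes, their pseudogenes, Vmn1r, Vmn2r and Taar genes, other genes inside the receptor clusters and all other protein-coding genes, with 1 point per library. Olfactory receptor genes sit between 1.66% and 4.20%, below the other genes in each of the 4 libraries.

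Other chemosensory receptor families were read in the same way. The 228 Vmn1r genes and 122 Vmn2r genes, which encode pheromone receptors of the vomeronasal organ, were covered less than the members. Vmn1r genes had mean covered shares of 0.630% and 1.39% in KO libraries, against 1.17% and 0.841% in WT libraries, and the members lay above them by a mean of 2.07 points (SD 0.934, n = 4 libraries). Vmn2r genes had 0.347% and 0.361% in KO libraries, against 0.457% and 0.297% in WT libraries, and the members lay above them by a mean of 2.72 points (SD 1.15, n = 4 libraries). The 15 trace amine-associated receptor (Taar) genes, a family with members expressed in the nose, had 4.15% and 8.49% in KO libraries, against 10.9% and 5.68% in WT libraries. The olfactory receptor members lay below them by 4.23 points on average (SD 2.20, n = 4 libraries). Each of these 3 orders held in 4 of 4 libraries, with an exact sign-flip permutation p of 0.13. The 35 bitter taste receptor (Tas2r) genes had between 0.426% and 0.984%, and the 3 sweet and umami taste receptor (Tas1r) genes had between 22.7% and 46.7%. Of the formyl peptide receptor genes, the 4 whose symbol starts with Fpr and a hyphen had no coverage in any library. Those whose symbol is Fpr followed by a digit were not counted. The 317 Olfr pseudogenes, which are not members, had 1.22% and 2.92% in KO libraries and 2.25% and 1.35% in WT libraries.

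Coverage was spread unevenly over the clusters. Among the 30 clusters with at least 5 members, 8 had no covered base in any library. These were 37 genes on chromosome 2 from Olfr1275 to Olfr1318, 35 on chromosome 9 from Olfr24 to Olfr18, 25 on chromosome 16 from Olfr172 to Olfr209, 15 on chromosome 7 from Olfr310 to Olfr292, 8 on chromosome 7 from Olfr1344 to Olfr1350, and 5 each on chromosomes 6, 11 and X. Over clusters of any size, 17 of 49, with 150 members in all, had none.

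Among the clusters with at least 5 members, the one with the highest coverage lay at chr1:92479681-92621001, from Olfr1416 to Olfr12, and each of its 8 members had coverage in at least 2 libraries. Its merged member intervals were covered by 42.6% and 62.1% in KO libraries, against 51.5% and 9.85% in WT libraries. It was followed by the 12 genes at chr13:21072349-21703965, from Olfr1370 to Olfr1359, of which 10 had coverage. These were covered by 25.3% and 41.5% in KO libraries, against 27.8% and 9.20% in WT libraries. The 24 genes at chr11:58454915-59614225, from Olfr30 to Olfr225, came next, with 18 covered members and 15.5% and 20.3% in KO libraries, against 23.2% and 11.1% in WT libraries. In all 3 clusters the ranges of the genotypes overlapped, and the lowest value was that of WT replicate 2, the library with the least covered length.

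Among the 6 clusters with at least 50 members, 3 were almost empty. The 222 genes at chr2:85330967-90401674 had 1 covered member, Olfr1274, the last gene of the cluster, with 23.6% and 0% in KO libraries, against 0% and 21.5% in WT libraries. The 95 genes on chromosome 9 from Olfr160 to Olfr986 had 1 covered member, again the last, Olfr986, with 12.7% in WT replicate 1 alone. The 58 genes on chromosome 10 from Olfr9 to Olfr827 had 1, the first, Olfr9, with 16.1% in WT replicate 1 alone. In total 6 clusters with at least 5 members, holding 437 genes, had a single covered member, and in 4 of the 6 it was the gene at an end of the cluster.

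**Figure D2:**
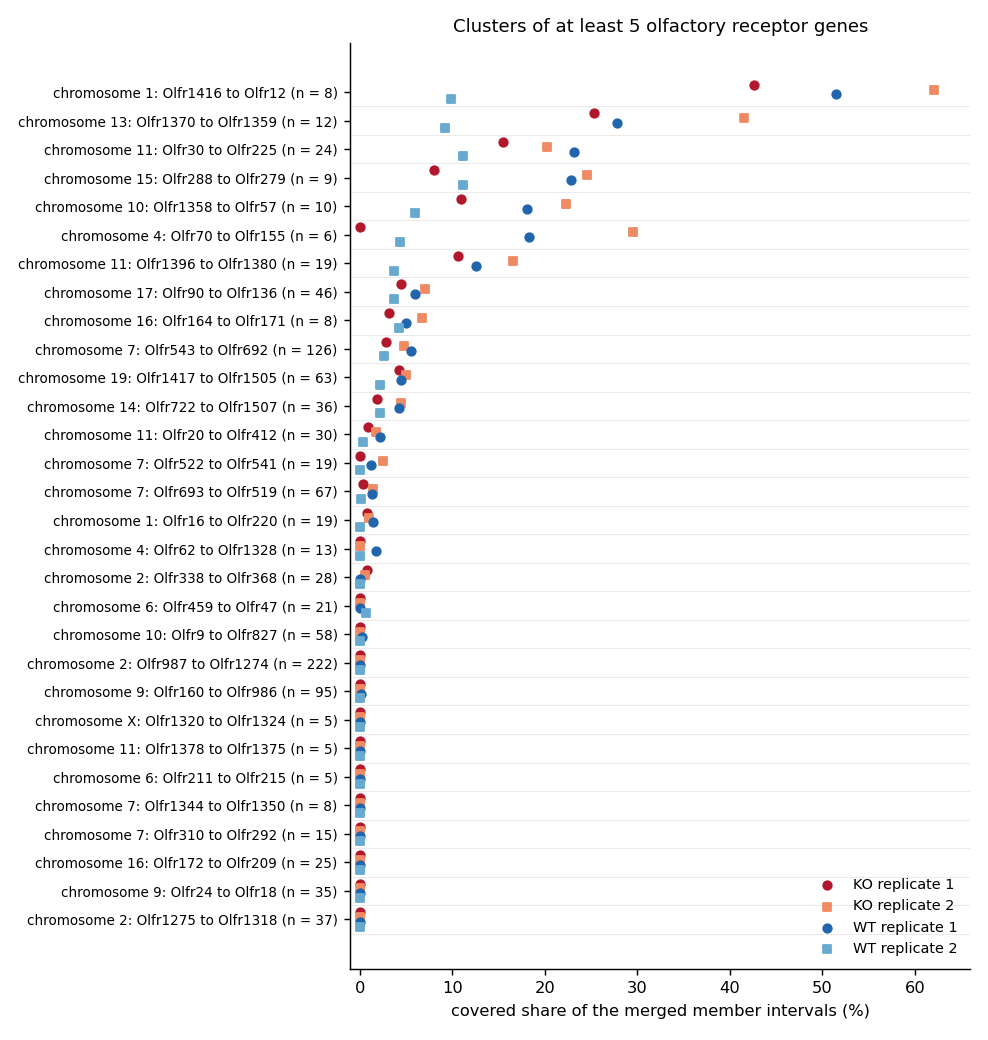
Covered share of the merged member intervals in each cluster of at least 5 olfactory receptor genes, in percent, with 1 point per library and clusters ordered by their mean over the 4 libraries. The cluster from Olfr1416 to Olfr12 on chromosome 1 reaches 62.1%, while the 222-gene cluster on chromosome 2 stays below 0.1% in every library.

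The class I cluster, 126 genes at chr7:102476773-105369317 from Olfr543 to Olfr692, held more covered members than any other cluster, 28, of which 5 had coverage in all 4 libraries. The 63 genes on chromosome 19 from Olfr1417 to Olfr1505 held 13 and the 67 on chromosome 7 from Olfr693 to Olfr519 held 8. The mean covered share of class I members was 2.4% and 4.07% in KO libraries, against 4.78% and 2.39% in WT libraries. The 983 class II members had 2.54% and 4.21% in KO libraries, against 3.84% and 1.57% in WT libraries. Class I minus class II was -0.14 and -0.15 points in KO libraries, against 0.94 and 0.82 points in WT libraries. The values of this difference did not overlap between genotypes, with an exact permutation p of 0.33, the smallest that 2 against 2 libraries allow. Over the 4 libraries the difference between the classes averaged 0.368 points (SD 0.594, n = 4 libraries), with an exact sign-flip permutation p of 0.5. With gene bodies alone it averaged 1.49 points and was above 0 in 4 of 4 libraries, with an exact permutation p of 0.13.

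Coverage also followed the size of the cluster. A covered base in any library was found for 4 of 9 members in single-gene clusters (44.4%), for 15 of 26 in clusters of 2 to 4 (57.7%), for 22 of 54 in clusters of 5 to 9 (40.7%), and for 44 of 205 in clusters of 10 to 29 (21.5%). In clusters of 30 to 49 it was 16 of 184 (8.70%), and in clusters of at least 50 it was 52 of 631 (8.24%). The members of a cluster share their neighbours and their peaks, so these shares are descriptions and were not tested.

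Coverage was concentrated in members close to genes of other families. For each member the distance from its body to the nearest protein-coding gene outside the family was taken. The 94 members within 20 kb of such a gene had mean covered shares of 16.8% and 23.8% in KO libraries, against 22.7% and 9.13% in WT libraries, and 50 of them (53.2%) had coverage in any library. The 163 members at 20 to 50 kb had 6.50% and 12.5% in KO libraries, against 11.2% and 4.96% in WT libraries, and 69 of them (42.3%) had coverage. At 50 to 100 kb, 22 of 191 members (11.5%) had any coverage, and at 100 to 200 kb 10 of 221 (4.52%). Of the 440 members at 200 kb or more, 2 had any coverage, Olfr707 and Olfr165, and the mean covered share was at most 0.0493% in any library.

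Members within 20 kb of another gene lay above members at 100 kb or farther in 4 of 4 libraries, by 16.8 and 23.7 points in KO libraries and by 22.5 and 9.07 points in WT libraries. The mean difference was 18.0 points (SD 6.66, n = 4 libraries; exact sign-flip permutation p = 0.13, adjusted p = 0.143). Large clusters and small clusters both showed it. In clusters of at least 30 members, 50 of the 125 members closer than 50 kb to another gene (40.0%) had coverage, against 18 of the 690 farther members (2.61%). In clusters of fewer than 10 members the shares were 34 of 60 (56.7%) and 7 of 29 (24.1%).

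**Figure D3:**
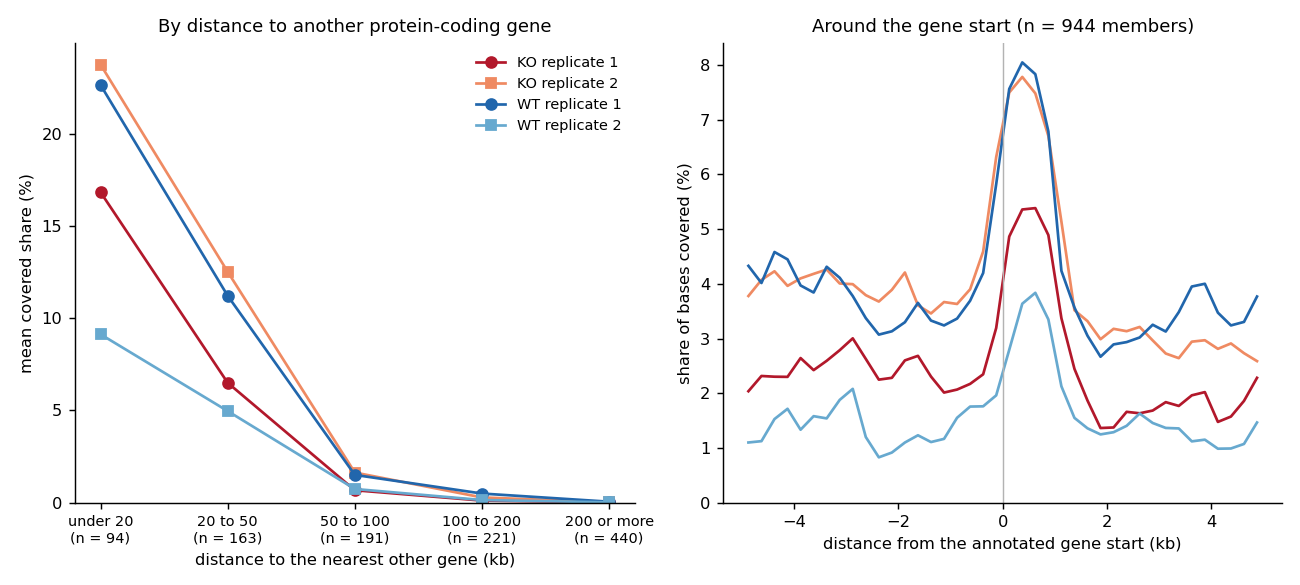
Covered share of olfactory receptor genes by distance in kb to the nearest protein-coding gene of another family, and covered share in 250 bp steps around the annotated start (distance in kb), with 1 line per library and the number of genes under each bin. In all 4 libraries coverage is highest within 20 kb of another gene and peaks inside the receptor gene body.

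The same gradient was seen from the ends of the clusters. In the 22 clusters of at least 10 members, 13 of the 44 end genes (29.5%) had coverage in any library, against 40 of 176 (22.7%) in the 2nd to 5th position from an end, 29 of 187 (15.5%) in the 6th to 10th, and 30 of 613 (4.89%) farther in. In 21 clusters of at least 10 members and 400 kb, the 100 kb just inside the ends were covered by 4.75% and 7.23% in KO libraries, against 6.32% and 2.76% in WT libraries. The 100 kb just outside were covered by 7.52% and 11.3% in KO libraries, against 11.4% and 5.36% in WT libraries, so the outside was the higher side in 4 of 4 libraries (exact sign-flip permutation p = 0.13). The 204 protein-coding genes of other families that lie inside the spans of the clusters had mean covered shares of 11.3% and 18.4% in KO libraries, against 16.8% and 8.19% in WT libraries. The members lay below these interspersed genes by 10.6 points on average (SD 3.55, n = 4 libraries; lower in 4 of 4, exact sign-flip permutation p = 0.13).

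A covered neighbour went with higher coverage of the receptor gene. The 257 members within 50 kb of another gene had 124 different nearest genes. Where the nearest gene was itself covered by at least 25% in the same library, members had mean covered shares of 22.7% (39 members) and 35.3% (57) in KO libraries, against 30.3% (54) and 16.6% (23) in WT libraries. Where it was not, members had 8.05% (218) and 11.3% (200) in KO libraries, against 11.4% (203) and 5.49% (234) in WT libraries. Members with such a neighbour were higher in 4 of 4 libraries. Where a member lies very close to its nearest gene, as Olfr94 does at 704 bp from Ubd, the extended bodies share bases. A single peak can then count on both sides, and such pairs were not set apart.

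The base composition of the promoters moved with the distance. RefSeq promoter windows were found for 944 members. Their median GC content was 42.0% for members within 20 kb of another gene, 39.5% at 20 to 50 kb, 37.7% at 50 to 100 kb, 35.0% at 100 to 200 kb and 33.0% beyond. Within 20 kb the median was 45.0% for members with coverage and 39.5% for those without, and at 20 to 50 kb it was 42.3% and 37.0%. The part of base composition in the gradient of coverage was not tested.

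Over all members the promoters were poor in CpG, the dinucleotide that is dense in most promoters held by Polycomb. Covered members had a median of 2 CpG per 300-base window and uncovered members 1, where promoters of other protein-coding genes had 14. The letters TCCCNNGGGA are the palindromic form of the Olf1/Ebf motif bound by the early B cell factors. On either strand they were found in 2 of the 133 promoters of covered members (1.5%). Among the 815 of uncovered members they were found in 3 (0.368%), and among all 32851 promoters in 0.904%. The shares of members rest on these few matches. The letters TAATTA, a homeodomain motif of the kind read by Lhx2 and Emx2, were found in 8.27% of promoters of covered members and 20.2% of those of uncovered members, against 5.29% of all promoters. A match of either motif cannot overlap a match of the other. TAATTA is made of A and T alone. In the 16 promoters of members covered by at least 25% in all 4 libraries its share was 18.8%, or 3 promoters, at a median GC content of 44.5%.

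Within the genes, coverage was higher over the receptor body than over its flanks. The body was covered by 4.52% and 7.10% in KO libraries, against 7.07% and 3.03% in WT libraries. The 2 kb flanks were covered by 1.98% and 3.44% in KO libraries, against 3.15% and 1.30% in WT libraries. The body was the higher of the 2 in 4 of 4 libraries, by 2.96 points on average (SD 1.02, n = 4 libraries; exact sign-flip permutation p = 0.13). Along the 944 members with a promoter window, coverage reached 5.38% and 7.78% in KO libraries and 8.05% and 3.84% in WT libraries between 250 and 750 bp after the annotated start. The start of these gene models is often the start codon. In 72.7% of them the gene begins with ATG, and 78.7% of all member bodies have a length that is a multiple of 3, so many of these windows need not hold the true promoter.

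The peaks over members were of ordinary width. There were 145 and 179 such peaks in KO libraries, against 178 and 127 in WT libraries, or between 0.154% and 0.203% of a list. Their median width was 1175 and 1548 bp in KO libraries, against 1461.5 and 846 bp in WT libraries. All other peaks in the same lists had median widths of 1140 and 1557 bp in KO libraries, against 1512 and 861 bp in WT libraries. Between 1 and 6 peaks in a list reached more than 1 member, and the widest peak over a member was 10310 bp long, in WT replicate 1. The median peak over a member stood at the 43.9th and 46.8th percentile of highest signal in its own KO list, against the 43.2nd and 40.4th in its own WT list.

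A core of 17 members was covered by at least 25% in all 4 libraries, or 1.53% of members where the share over all genes was 12.6%. At this level there were 42 and 73 members in KO libraries, against 72 and 26 in WT libraries. These made up 3.79% and 6.58% of members in KO libraries, against 6.49% and 2.34% in WT libraries. Over all genes the same shares were 17.7% and 26.4% in KO libraries, against 23.6% and 13.1% in WT libraries. The core lay on 8 chromosomes, and it held Olfr94, Olfr95, Olfr222, Olfr312, Olfr1359, Olfr649, Olfr521, Olfr1373, Olfr221 and Olfr12, described next, together with Olfr550, Olfr1371, Olfr314, Olfr313, Olfr15, Olfr63 and Olfr1420.

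Olfr94 (gene ID 258219), at chr17:37196806-37197966, had the highest coverage, with 100% and 100% in KO libraries, against 100% and 95.2% in WT libraries. Its promoter is printed above. It lies 704 bp from Ubd, which encodes the ubiquitin-like modifier FAT10, and its main peaks were 5555 and 7894 bp long in KO libraries and 9145 and 4222 bp long in WT libraries. These 4 peaks stood at or above the 96.9th percentile of highest signal in their own lists. Its neighbour Olfr95, 14811 bp from Ubd, had 58.5% and 81.4% in KO libraries, against 62.3% and 36.2% in WT libraries.

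Olfr222 (gene ID 257962), at chr11:59570782-59571738, lies 3826 bp from Nlrp3, the gene of an inflammasome sensor. It had 88.5% and 91.1% in KO libraries, against 100% and 46.7% in WT libraries. Olfr312 (gene ID 258065), at chr11:58831156-58832082 in the same cluster, had 74.1% and 79.2% in KO libraries, against 88.8% and 76.8% in WT libraries, and its body was covered in full in all 4. Its neighbour Olfr311 had 62.2% and 74.7% in KO libraries, against 81.2% and 15.4% in WT libraries. For these 3 genes WT replicate 1 was the highest library, and the genotypes overlapped.

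On chromosome 13, Olfr1359 (gene ID 258067), at chr13:21702974-21703965, lies 11745 bp from the histone gene H2bc13. It had 79.6% and 95.0% in KO libraries, against 85.6% and 33.9% in WT libraries. Olfr1367 in the same cluster had 62.0% and 70.9% in KO libraries, against 72.2% and 23.5% in WT libraries. Both were lowest in WT replicate 2.

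Olfr649 (gene ID 259057), at chr7:104189267-104190205, was the highest class I gene. It had 58.9% and 62.5% in KO libraries, against 59.6% and 49.4% in WT libraries, and its body was covered in full in all 4. Outside these clusters, Olfr521 on chromosome 7 had 55.0% and 84.9% in KO libraries, against 87.4% and 35.5% in WT libraries. Olfr1373 on chromosome 11 had 70.4% and 80.3% in KO libraries, against 74.1% and 30.2% in WT libraries. Olfr221 on chromosome 14 had 35.6% and 95.8% in KO libraries, against 74.1% and 36.4% in WT libraries. Among the 12 members of highest mean coverage, Olfr12 on chromosome 1 was the only one whose genotypes did not overlap, with 72.4% and 67.3% in KO libraries, against 64.4% and 30.4% in WT libraries.

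**Figure D4:**
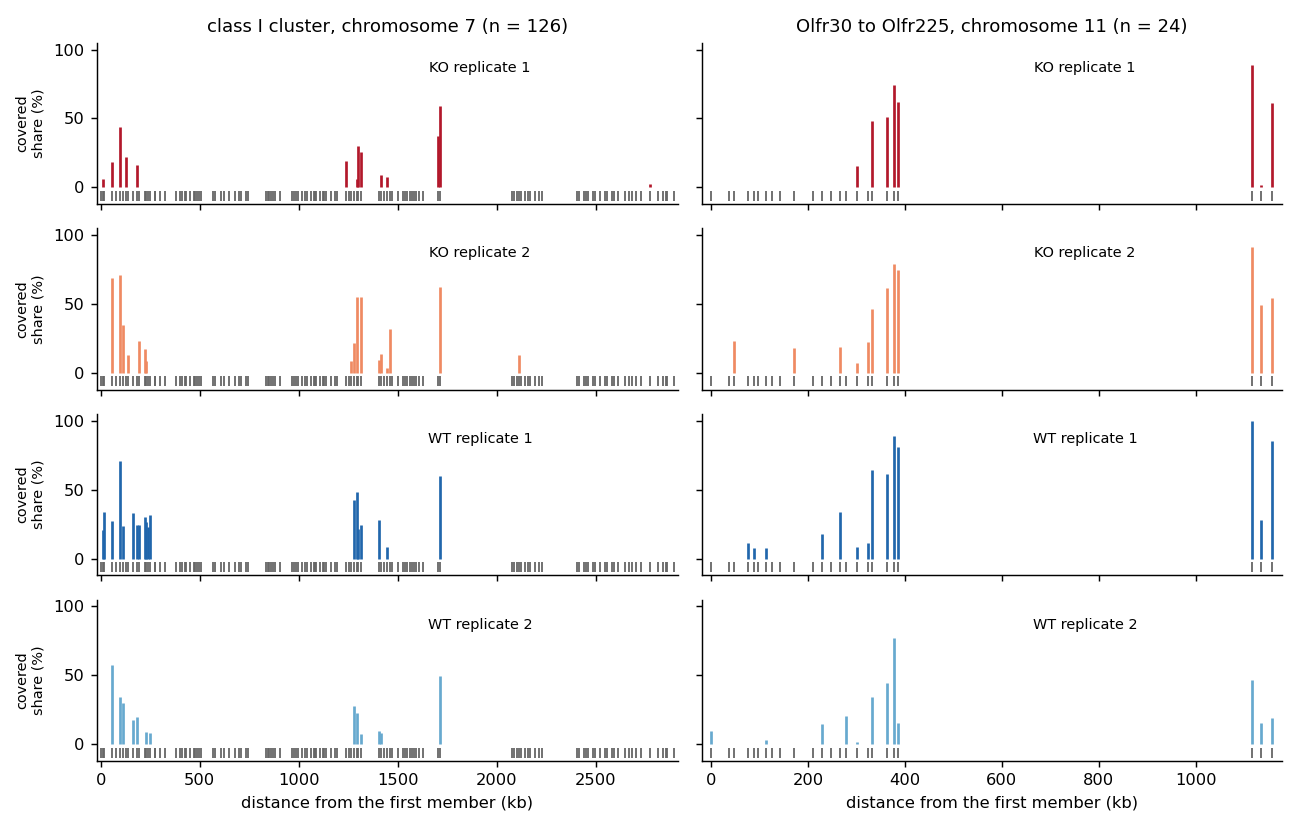
Covered share of each olfactory receptor gene along the class I cluster and the chromosome 11 cluster from Olfr30 to Olfr225, against distance from the first member in kb, with 1 row of panels per library, KO above WT, and ticks below for every member. Covered genes such as Olfr649 in the class I cluster and Olfr312 and Olfr222 in the chromosome 11 cluster recur in all 4 libraries.

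Most receptors that have been studied by name were bare, as were most members. Over all members, 86.2% had no coverage in any library. Of the 11 studied receptors that the annotation held, 8 had none. These were Olfr2 (the I7 receptor), Olfr16 (MOR23), Olfr17 (P2), Olfr73 (mOR-EG), Olfr160 (M72), Olfr1507 (MOR28), Olfr1019, and Olfr78, a receptor of the carotid body and kidney. The other 3 had peaks. Olfr1393, a receptor of the kidney, had 26.2% and 43.7% in KO libraries, against 25.3% and 3.54% in WT libraries. The class I receptor Olfr558 had 0% and 8.79% in KO libraries, against 26.8% and 8.55% in WT libraries, and the class I receptor Olfr544 had 6.25% and 0% in KO libraries, against 21.1% and 0% in WT libraries. Only for Olfr1393 did the genotypes not overlap, and there KO replicate 1 and WT replicate 1 differed by less than 1 point.

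Knockout of Kdm6b was not followed by a difference in the family as a whole that exceeded the spread between libraries. The mean covered share was 3.36 ± 1.18% in KO libraries and 2.80 ± 1.61% in WT libraries (SD, n = 2 each), a difference of 0.557 points with an exact permutation p of 0.667. The ratio of the members' mean to that of the other genes was 0.191 and 0.209 in KO libraries, against 0.223 and 0.168 in WT libraries (exact permutation p = 1). The count of members covered by at least 25% differed by 8.5 on average, with an exact permutation p of 0.667. In each of these measures the ranges of the genotypes overlapped, and 2 against 2 libraries cannot give a p below 0.33. Of the 153 members with coverage, 18 and 60 had their highest value in KO replicates 1 and 2, against 65 and 10 in WT replicates 1 and 2, so the highest value mostly fell in the library with more covered length of each genotype.

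A model was fitted with limma to the covered shares of the 14648 protein-coding genes with coverage in any library. None of the 153 members among them passed an adjusted p of 0.05 in either direction, and neither did any other gene (0% higher, 0% lower). At an unadjusted p under 0.05, 5 members were higher in KO (Olfr1415, Olfr1410, Olfr368, Olfr694 and Olfr263) and 2 were lower (Olfr554 and Olfr320), where the shares over all genes tested were 1.41% and 0.191%. The median difference, KO minus WT, was 2.48 points over these members and 1.97 points over all genes tested.

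The genotypes did not overlap in 28 members, with KO higher in 17 (1.53%) and lower in 11 (0.992%), where the shares over all protein-coding genes were 8.83% and 1.58%. The 956 members without coverage are part of these shares and cannot fall in either class. Over members with coverage alone the shares were 11.1% higher and 7.19% lower, and over all genes with coverage 13.1% and 2.34%, so the share of members lower in KO was below that of all genes when every gene was counted and above it when covered genes alone were counted. The class I cluster, with 126 of the 1109 members and 28 of the 153 with coverage, held 5 of the 11 and 2 of the 17, and the chromosome 1 cluster from Olfr1416 to Olfr12 held 4 of the 17. At the level of 25%, 3 members were covered in both KO libraries and in no WT library (Olfr1410, Olfr67 and Olfr1441; 0.271% of members, 0.253% of all genes), 2 in both WT libraries and in no KO library (Olfr630 and Olfr281; 0.18% of members, 0.023% of all genes), and 14 in KO replicate 2 and WT replicate 1 alone (1.26% of members, 4.87% of all genes). In KO replicate 1 and WT replicate 2 alone there were 0 members (0.0138% of all genes). Counted in bases, 44.7 kb of the members lay under peaks of all 4 libraries, or 10.4% of what any library covered. Bases covered in both KO libraries alone came to 22.7 kb, those in both WT libraries alone to 7.02 kb, and those in KO replicate 2 and WT replicate 1 alone to 67.3 kb.

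The largest difference among these members was that of Olfr1410 (gene ID 258484), at chr1:92607839-92608807. It had 67.2% and 91.7% in KO libraries, against 22.1% and 4.25% in WT libraries, a difference of 66.3 points (SE 12.8, limma; adjusted p = 1). With 5 kb on each side the difference fell to 15.6 points, with 41.3% and 56.7% in KO libraries, against 50.5% and 16.2% in WT libraries, so that the genotypes overlapped. When the peaks of highest maximum were kept in each list up to an equal covered length, it was 3.95 points, with 34.2% and 0% in KO libraries, against 22.1% and 4.25% in WT libraries. The cluster around it as a whole showed overlap too, since Olfr1411 had 19.6% and 82.8% in KO libraries, against 84.9% and 0% in WT libraries. Olfr1441 on chromosome 19 had 41.5% and 85.7% in KO libraries, against 22.7% and 0% in WT libraries, and Olfr1413 on chromosome 1 had 60.8% and 52.6% in KO libraries, against 37.9% and 0% in WT libraries. In all 3 genes WT replicate 2 was the lowest library. At equal covered length Olfr1441 had no coverage in any library, and Olfr1413 had 47.4% in KO replicate 1 alone. That cut kept 43139 of 80639 and 16670 of 90417 peaks in KO libraries, against 21192 of 87486 and all 82292 in WT libraries. Peaks of lower signal thus dropped out of every list but that of WT replicate 2. Coverage lost at equal covered length is therefore not a check on a single gene.

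A pair of genes had their whole body under a peak in both KO libraries and no peak in either WT library. Olfr263 (gene ID 18341), at chr13:21132777-21133730, had 22.3% and 28.9% with its flanks in KO libraries, against 0% and 0% in WT libraries. Its peaks were 1103 bp long in KO replicate 1 and 1432 bp in KO replicate 2, at the 8.87th and 15.5th percentile of highest signal in their lists. The nearest WT peaks lay 4859 and 10020 bp away. Olfr694 (gene ID 258444), at chr7:106688782-106689729, had 24.5% and 26.4% in KO libraries, against 0% and 0% in WT libraries. Its peaks were 1210 and 1305 bp long, at the 54.6th and 52.7th percentile, and the nearest WT peaks lay 6682 and 91349 bp away. At equal covered length Olfr263 had no coverage in any library and Olfr694 had 24.5% in KO replicate 1 alone. Both KO replicate 2 peaks, and the KO replicate 1 peak of Olfr263, ranked too low in signal to be kept. These values are therefore not a check on either gene.

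When limma was fitted to gene bodies alone, in which 133 members and 13804 genes had coverage, these 2 members were the only genes called higher in KO, or 0.0145% of genes, and 0% were called lower. Their bodies had 100% and 100% in KO libraries, against 0% and 0% in WT libraries, with an adjusted p of 0.0380 for each in limma. Each of these values lies at the limit of the scale, so there was no spread within a genotype behind them, and with the 2 kb flanks neither gene passed (adjusted p = 1 in limma). The call thus rests on the presence of 1 peak in each of 2 libraries. At an unadjusted p under 0.05, bodies of 4 members were higher and 1 was lower, where the shares over all genes were 1.56% and 0.34%.

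Olfr464 on chromosome 11 had 16.6% and 43.5% in KO libraries, against 0% and 0% in WT libraries. Olfr1415 on chromosome 1 had 19.6% and 30.7% in KO libraries, against 0% and 0% in WT libraries. Olfr67, a class I gene beside the globin genes, had 25.9% and 55.2% in KO libraries, against 24.4% and 7.17% in WT libraries. Of these 3, Olfr464 and Olfr1415 had no WT peak, while in Olfr67 a single WT library came close to a KO library. At equal covered length, where peaks of lower signal are dropped from both KO lists, Olfr464 had no coverage in any library.

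In the other direction Olfr281 (gene ID 258277), at chr15:98456312-98457247, had 0% and 24.1% in KO libraries, against 53.2% and 38.4% in WT libraries, a difference of -33.7 points (SE 12.0, limma; adjusted p = 1). Olfr554 (gene ID 258322), a class I gene at chr7:102640248-102641201, had no coverage in KO libraries, against 32.8% and 17.6% in WT libraries. Its body alone had 0% in WT replicate 1, where the coverage lay in the flanks, and 37.2% in WT replicate 2. Olfr320, on chromosome 11, also had no coverage in KO libraries, against 17.8% and 14.8% in WT libraries. The WT peaks in its extended body were 878 and 728 bp long, and the nearest KO peaks lay 23792 and 24673 bp away. These WT peaks shared no base. That of WT replicate 1 lay over the gene body, which it covered by 95.3%. That of WT replicate 2 lay in a flank, and the body had 0% there.

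Among class I genes, Olfr559 had no coverage in KO libraries, against 31.4% and 8.31% in WT libraries. Olfr630 had 0% and 21.4% in KO libraries, against 42.3% and 27.7% in WT libraries, and Olfr66 had 0% and 9.22% in KO libraries, against 27.9% and 9.79% in WT libraries. In all 3 WT replicate 1 was highest, and in Olfr66 the gap between KO replicate 2 and WT replicate 2 was under 1 point. Olfr56 on chromosome 11 had 0% and 31.7% in KO libraries, against 33.5% and 39.9% in WT libraries. Olfr49 on chromosome 14 had 23.6% and 0% in KO libraries, against 36.2% and 24.4% in WT libraries. In both genes the closest KO and WT values lay within 2 points of each other. At equal covered length each of these 8 genes, from Olfr281 to Olfr49, had coverage in WT replicate 2 alone, the library whose list is then kept whole. The other lists keep their peaks of highest signal alone, so this is not a check on these genes.

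**Figure D5:**
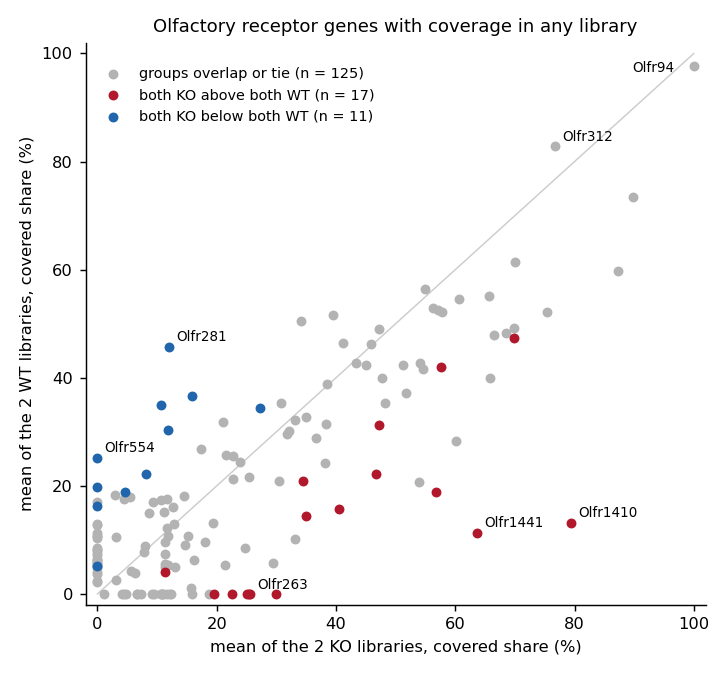
Mean covered share of each of the 153 olfactory receptor genes with coverage, KO (2 libraries) on the horizontal axis against WT (2 libraries) on the vertical axis, in percent, with a line of equal values. The 17 genes in which KO lay above WT without overlap include Olfr1410, and the 11 in which it lay below include Olfr281.

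By cluster, the KO mean was higher in 15 of the 30 clusters with at least 5 members, lower in 7, and 0 in both genotypes in the 8 bare ones. In a single cluster, 28 genes on chromosome 2 from Olfr338 to Olfr368, both KO libraries lay above both WT libraries, with 0.785% and 0.640% in KO libraries, against 0% and 0% in WT libraries. That cluster had 1 covered member, its last gene Olfr368, with 24.8% and 20.2% in KO libraries. The exact permutation p was 0.33, the smallest possible, and 1 after Benjamini-Hochberg adjustment over the 30 clusters.

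Genes that work with odorant receptors were read beside them. Of 15 genes of olfactory signalling, 4 and 6 were covered by at least 25% in KO libraries, against 6 and 4 in WT libraries, and none of the 14 tested was called by limma in either direction. Rtp1, which helps odorant receptors reach the cell surface, had 93.5% and 90.4% in KO libraries, against 91.5% and 51.8% in WT libraries. Cnga4, a subunit of the olfactory cyclic nucleotide-gated channel, had 61.6% and 81.5% in KO libraries, against 69.5% and 38.3% in WT libraries. Omp, the olfactory marker protein, had 0% and 37.8% in KO libraries, against 51.1% and 0% in WT libraries, and Cnga2, the main subunit of the same channel, had 0% in all 4.

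Of 15 genes that act in the choice of a receptor in sensory neurons, 3 and 5 were covered by at least 25% in KO libraries, against 3 and 3 in WT libraries, and none of the 13 tested was called by limma. Lhx2, a LIM-homeodomain factor needed for receptor expression, had 97.9% and 100% in KO libraries, against 98.9% and 89.6% in WT libraries. Emx2, another homeodomain factor, had 97.1% and 100% in KO libraries, against 100% and 92.1% in WT libraries. Lbr, the lamin B receptor, which B cells also express, had 0% in all 4. The 2 homeodomain factors Lhx2 and Emx2 were covered by at least 89.6% in each library, while the 222-gene receptor cluster on chromosome 2 stayed below 0.1%. The median difference, KO minus WT, was 0.513 points over the signalling genes and 2.03 points over the receptor choice genes, against 1.97 points over all genes tested.

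The identity of the cells was checked with marker genes. Of 11 B cell and germinal center markers found in the annotation, 0 and 1 were covered by at least 25% in KO libraries, against 0 and 0 in WT libraries, the exception being Cd79b with 31.0% in KO replicate 2. Bcl6 and S1pr2 had no coverage in any library. Of 7 T cell markers, 5 and 6 were covered in KO libraries, against 6 and 5 in WT libraries. Of 5 myeloid markers 4 and 4 were covered in KO libraries, against 4 and 2 in WT libraries, of 4 erythroid markers 3 and 3, against 3 and 2, and of 3 NK cell markers 1 in each library.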

How the data were processed

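H3K27me3 was profiled by CUT&Tag in 4 libraries of germinal center B cells, 2 KO and 2 WT. The authors deposited 1 peak list per library with 6 columns, in which each peak has its position, total signal and highest signal (coverage). Per the submitters' processing notes, the tools were SEACR, deepTools, Bowtie2 2.4.2, Trim Galore 0.6.6 and SAMtools 1.11, and the build was mm10. Their settings, the control, the treatment of reads with several best matches and the signal's scale are not given in the sources used. Read depth is therefore unknown, no counting interval was computed, and precision rests on 2 libraries per genotype. The series text counts 2 mice per genotype.

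Covered shares were computed from peak positions. Peaks were ranked within their own list by highest signal. Of 21887 protein-coding genes in RefSeq (GRCm38.p6), 113 on scaffolds were left out, 1 of them a member (Olfr100). The length of the genome was taken as the last gene or peak end of each chromosome, 2722 Mb in sum. Tests were exact permutation tests over libraries and limma 3.58.1 in R 4.3.3 on all genes with coverage, with Benjamini-Hochberg adjustment over all of them. The scripts ran in Python 3.11.15 with numpy 2.4.6 and pandas 2.3.3 and were tested on simulated data. The simulated shares had the same normal noise in every library and no difference in covered length between libraries. They do not show what limma can call in these lists.

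Members named are the 12 of highest mean coverage, up to 8 per direction with the largest difference among those whose genotypes do not overlap, all limma calls, receptors studied by name, and the highest and lowest clusters. Others were named after their values were seen. The members, lists and tests were chosen with earlier results of these data known. Alternatives were the body alone, 5 kb flanks, equal covered length, peaks of at least 500 bp, other levels and cluster gaps, other limma settings, and each library left out. The comparisons by distance and of body with flanks were added after the data were seen.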

Additional observations from a re-analysis of the deposited data

How the results depend on the processing

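The members lay below other genes, members near other genes lay above distant ones, and bodies lay above flanks in 4 of 4 libraries under each alternative of the peak lists and windows that was run for them, and limma called 0 members except with bodies alone (2 higher). The family-wide differences between genotypes turned round under some alternatives and kept their sign under others. The mean covered share differed by 0.758 points with bodies alone, 0.345 with 5 kb flanks and 0.593 with peaks of at least 500 bp. At equal covered length the peaks of highest maximum were kept in each list, 43139 and 16670 in KO libraries, against 21192 and 82292 in WT libraries. The mean covered share then differed by -0.255 points, the density relative to the genome by -0.0788 and the count of members covered by at least 25% by -4.5. In those lists 54 and 16 members had any coverage in KO libraries, against 25 and 85 in WT libraries, 3 members had KO above WT without overlap, 1 of the original 17 among them (6.51% of all genes), 8 had KO below WT, 0 of the original 11 among them (4.91% of all genes), and 5 clusters had the higher mean in KO. With 5 kb flanks the density differed by -0.00511, and with any covered base as the level the count differed by -0.5. With bodies alone 13 members had both KO values above both WT values and 3 had both below. No share over all genes stands beside these counts.

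When each library was left out in turn, the mean difference lay between -0.583 and 1.70 points, the density difference between -0.0221 and 0.0580, and the difference in count between -14.5 and 31.5. Members with KO above WT numbered between 19 and 64, those with KO below WT between 11 and 66, and clusters with a higher KO mean between 6 and 17. With fewer libraries the genotypes of any gene overlap less easily, and no share over all genes stands beside these member counts. They are therefore not read as a result about the members. The lowest 3 differences came without WT replicate 2, the library with the least covered length. The causes were not tested. No paired analysis was possible because the labels carry no replicate numbers; those used here follow accession order and only name the libraries. All counts rest on 2 libraries per genotype whose covered lengths differ widely, and a member without a peak may carry the mark below the level that was called.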
